A study of Mus musculus with 24 samples.

Results

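The genes described here carry pyruvate into mitochondria, oxidise it and pass its carbon and electrons on: 31 genes of pyruvate import and oxidation, the citrate cycle and the malate-aspartate shuttle, chosen by name out of 47643 rows of the count table. All 31 had a row and at least 1 read. A gene was kept if about as many libraries, from either group, as the smaller group holds had about 10 reads or more. By this rule 29 of the 31 were tested among 10159 genes. Mpc1 and Pdk3 were not, and are given by their counts.

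The tissue was plantaris, a fast calf muscle, of wild type C57BL/6 mice. Of the 24 libraries, 11 came from animals kept in normal air and 13 from animals exposed to tobacco smoke over 16 weeks. The labels give no age, sex, smoke dose or time of day at collection, and do not say that each library is a separate animal, so p-values measure the spread between libraries. Expression was read from the 3′ ends of polyadenylated transcripts, and levels are CPM, reads of a gene relative to library size, on libraries scaled by the trimmed mean of M values (TMM). Such a level is comparable for 1 gene across libraries, not between genes.

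Pyruvate made by glycolysis crosses the inner mitochondrial membrane through a carrier built from Mpc1 and Mpc2, and the pyruvate dehydrogenase complex turns it into acetyl-CoA. Kinases (Pdk) switch that complex off by phosphorylation and phosphatases (Pdp) switch it on. The citrate cycle oxidises the acetyl group, and the malate-aspartate shuttle moves electrons of cytosolic NADH into the mitochondrion with a malate dehydrogenase and an aspartate aminotransferase on each side of the membrane. Fast muscle also uses the glycerophosphate shuttle for that purpose, and red, oxidative fibres hold more of the citrate cycle enzymes than white ones.

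Total counts per library ranged from 2515697 to 4528845, and 3 reads corresponded to 0.665 to 1.15 CPM. The fibre markers fixed for the check of the tissue (Acta1, Ckm, Tnnt3, Mylpf, Myh4, Myh1, Actn3 and Pvalb) were all abundant in every library and 0 of 8 were called, with Myh4 higher at an unadjusted p of 0.0246 (edgeR log2 fold change 0.16, adjusted p = 0.228). Other cell types moved with exposure. Blood markers were called lower in 3 of 5 (summed level 486 to 1444 CPM in air and 369 to 883 CPM in smoke, none of them at 0). Schwann cell markers were called higher in 3 of 6 (122 to 285 CPM in air and 183 to 858 CPM in smoke, none of them at 0), with smoke replicates 2, 10 and 12 the highest at 858, 609 and 642 CPM. Slow fibre markers were called in 0 of 7, with 3 of 7 lower at an unadjusted p under 0.05 (edgeR log2 fold changes of Myl2 −0.46, Atp2a2 −0.35 and Myl3 −0.29) and 4 with positive values. Their summed level was 375 to 756 CPM in air and 310 to 672 CPM in smoke, with 11 of 13 smoke libraries under the air mean. None of the adipocyte, endothelial, fibroblast or tested macrophage markers was called. At an unadjusted p under 0.05 by edgeR, 2 of 5 fibroblast markers were lower (Col1a1 −0.37 and Col3a1 −0.32), endothelial markers were 1 lower and 1 higher of 6, and adipocyte markers 1 lower and 2 higher of 6. Smoke libraries lay under the air mean of the fibroblast sum in 11 of 13 and of the endothelial sum in 12 of 13, and over that of the adipocyte sum in 9 of 13. The part of these cell types in the results below was not tested. Some values are also given without some libraries or with a marker sum as a covariate. The sums themselves moved with exposure: in smoke the Schwann sum exceeded its air mean in 13 of 13 libraries, and the blood sum lay under its own in 12 of 13. A covariate that differs between the groups takes part of the group difference with it, so these fits cannot tell cell content from exposure. In whole muscle, fewer cells of a type and less RNA per cell cannot be told apart. Air replicate 11 stood apart from the other air libraries: it had the lowest TMM factor (0.857, against 0.904 in smoke replicate 10, the next lowest) and the highest fibre marker sum (215980 CPM). Of the 29 tested members, 12 were lower there than in each of the other 10 air libraries and 4 were higher. Without it the log2 fold change under smoke was −0.068 for Dld, −0.062 for Cs, −0.053 for Idh3a, −0.030 for Dlst and −0.0053 for Slc25a11, against −0.0019, −0.015, −0.024, −0.016 and 0.017 with it. For Mpc2, Pdp1, Suclg2, Fh1, Mdh1 and the 6 ratios, the values without it stand beside the results.

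Mdh1, the cytosolic malate dehydrogenase of the shuttle, was the single member called at an adjusted p under 0.05. It fell under smoke to 84.1% of its level in air. No member was called higher. The background was 1.92% of all tested genes called in either direction and 1.19% called lower, against 1 of 29 members. At an unadjusted p under 0.05 there were 12 members, 11 of them lower, where the background was 15.5% in either direction and 7.95% lower. The other 28 members had log2 fold changes between −0.21 and 0.25, and 21 of these 28 were negative. Over all 29 the median log2 fold change was −0.081 and 22 (75.9%) were negative, against a median of 0.0066 and 48.4% negative over all genes. With the Schwann marker sum as a covariate the median was −0.025 and 17 of 29 were negative. In that fit 5 members and 1223 of all 10159 genes had an unadjusted p under 0.05. Without smoke replicates 2, 10 and 12 the median was −0.055 and 19 were negative, with 9 members and 1390 genes at an unadjusted p under 0.05. Summed over the 31 members, the level was 6801 to 7632 CPM in air (median 7262) and 6076 to 7353 CPM in smoke (median 6810), so the groups overlapped. The 8 members with the smallest p-values were Mdh1, Pdp1, Pdhb, Sucla2, Idh2, Idh3g, Mdh2 and Pdk2.

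**Figure D1:**
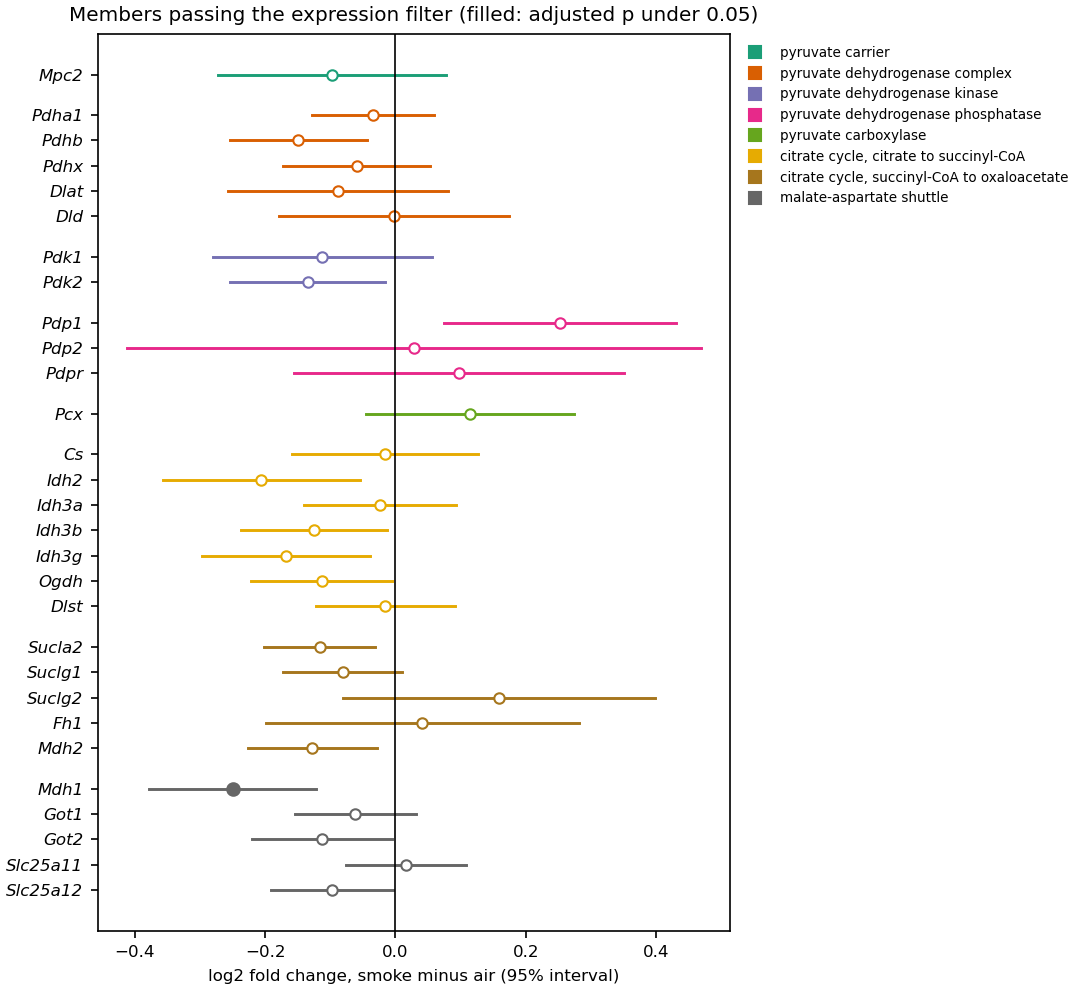
Log2 fold change (smoke minus air, x axis) of the 29 tested members with its 95% interval, ordered and coloured by role; a filled point marks an adjusted p under 0.05. Mdh1 at −0.25 is the filled point, the 3 phosphatase genes lie above 0 (Pdp2 falls below it when some single libraries are left out), and the members of the dehydrogenase complex lie below 0 with intervals that mostly cross it.

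Of the 2 carrier subunits, Mpc2 was at 248.7 to 472 CPM in air (median 392) and at 267 to 418 CPM in smoke (median 372). The groups overlapped almost wholly, and the log2 fold change was −0.097 (SE 0.086, edgeR adjusted p = 0.652, 95% interval −0.27 to 0.078). Air replicate 11 was its lowest library, and without it the log2 fold change was −0.15 (edgeR adjusted p = 0.333). With the Schwann marker sum as a covariate the direction turned (0.032), and without smoke replicates 2, 10 and 12 it was −0.034. Mpc1, its obligate partner, was hardly read: 60 reads over the air libraries and 89 over the smoke libraries, at most 11 in 1 library. A pseudogene named after it, Mpc1-ps, had 1 read in all. Whether the 3′ end of Mpc1 lies inside the annotation used for counting is not given in the sources used here, so these counts do not give its level, and no difference was tested.

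The pyruvate dehydrogenase complex is built from an E1 heterodimer (Pdha1, Pdhb), the acetyltransferase core Dlat, the anchor Pdhx and the dehydrogenase Dld. Of its 5 genes 0 were called. All 5 log2 fold changes were negative, but that of Dld lay at 0 and turned positive in many settings (0.0094 with limma voom, 0.094 with the Schwann marker sum as a covariate), and that of Dlat was 0.044 with the Schwann sum. Pdhb, the E1 beta subunit, was at 126 to 167 CPM in air (median 154) and at 115 to 148 CPM in smoke (median 135). The ranges overlapped, but all 13 smoke libraries lay below the air mean and 6 of 11 air libraries lay above every smoke library. From 150 ± 12.1 (SD, n = 11) to 135 ± 8.99 CPM (SD, n = 13), its log2 fold change was −0.15 (SE 0.052, edgeR quasi-likelihood, unadjusted p = 0.00717, Benjamini-Hochberg adjusted p = 0.132). Pdha1, the E1 alpha subunit that carries the phosphorylation sites, was at 396 to 510 CPM in air and 400 to 486 CPM in smoke, with medians of 452 and 449 CPM. Its log2 fold change of −0.034 had a 95% interval of −0.13 to 0.059, which stops short of the point estimate of Pdhb, and whether the subunits differ was not tested. It was −0.019 without air replicate 5 and −0.054 without air replicate 1. Pdhx and Dlat were at −0.059 and −0.087, with edgeR adjusted p of 0.677 and 0.680. Pdhx was at −0.039 without smoke replicate 6, and Dlat at −0.051 without air replicate 10 and −0.027 without smoke replicates 2, 10 and 12. Dld, which also serves the oxoglutarate and branched-chain complexes, was at −0.0019 (95% interval −0.18 to 0.18). In air replicate 11 Dld was at 36.5 CPM, below every other library, while the other air libraries spanned 59.1 to 77.2 CPM.

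Among the members, the 2 tested kinases of the complex had negative and the 3 phosphatase genes positive log2 fold changes, and none of these 5 was called. Pdk4, a further kinase that is not a member and was called, is described with the other genes of the pathway. Pdk2, the kinase isoform widely expressed in muscle, was at 105 to 138 CPM in air (median 120) and 89.3 to 126 CPM in smoke (median 107). Smoke libraries lay below the air mean in 11 of 13, and 6 lay below the lowest air library. Its mean went from 118 ± 11.0 to 108 ± 9.82 CPM (SD, n = 11 and 13), a log2 fold change of −0.13 with SE 0.059 (by edgeR, unadjusted p = 0.0274, adjusted p = 0.240). With the Schwann marker sum as a covariate it was −0.075 (edgeR adjusted p = 0.755). Pdk1, an isoform known as a hypoxia target, was at −0.11 (SE 0.083, edgeR adjusted p = 0.561), at −0.072 without air replicate 9 and at −0.025 with the Schwann marker sum as a covariate. Pdk3 had 35 reads in air and 57 in smoke. Pdp1, the calcium-activated catalytic phosphatase of muscle, was at 25.8 to 50.2 CPM in air (median 40.8) and 39.7 to 63.2 CPM in smoke (median 49.1). In smoke, 10 of 13 libraries exceeded the air mean. Its mean went from 41.2 ± 7.21 to 49.2 ± 6.496 CPM (SD, n = 11 and 13), a log2 fold change of 0.25 with SE 0.088 (by edgeR, unadjusted p = 0.00672, adjusted p = 0.128), of nearly the same size as that of Mdh1 but with a wider error. Air replicate 11 was its lowest library, and without it the value was 0.20 (edgeR adjusted p = 0.183). The second catalytic subunit Pdp2 and the regulatory subunit Pdpr were at 0.028 and 0.098. Leaving out 1 library moved Pdpr between 0.062 (without air replicate 1) and 0.17 (without air replicate 5). Pdp2 turned negative without air replicate 3, 7, 8 or 9 or smoke replicate 5 or 13 (down to −0.066), and with the slow fibre marker sum as a covariate (−0.047). Pdp2 had only 3 to 24 reads per library, and its 95% interval of −0.41 to 0.47 covers the fold changes of every other member.

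Within a library, the balance of kinase to phosphatase can be read as the log2 ratio of Pdk2 to Pdp1, which does not depend on how libraries are scaled. Read counts of different genes do not give their molar ratio, so only the shift is meaningful. The ratio was 1.098 to 2.29 in air (median 1.58) and 0.83 to 1.42 in smoke (median 1.103). All 13 smoke libraries lay below the air mean. The ratio fell by 0.40 on the log2 scale (SE 0.11, two-sided permutation p = 0.00095, Benjamini-Hochberg adjusted p = 0.0057 over 6 ratios). The pairs were chosen with earlier results of these data known, which the adjustment over 6 ratios does not cover. Neither gene was called alone (edgeR adjusted p = 0.240 for Pdk2 and 0.128 for Pdp1). The highest air value was air replicate 11, where Pdp1 was at its lowest, and without that library the shift was −0.32 (permutation adjusted p = 0.0104). The ratio of Pdk2 to Pdk1, both kinases, differed by −0.024 (SE 0.10, permutation adjusted p = 0.810), and by −0.0024 without air replicate 11.

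The start of the Pdk2 gene (the upstream of 2 RefSeq starts) is shown because Pdk2 is the kinase of this ratio, although Pdp1, for which no RefSeq promoter was matched, had the larger log2 fold change (0.25 against −0.13). That of Slc25a12, the aspartate-glutamate carrier of the shuttle, is shown because it had the larger log2 fold change in the ratio of the shuttle carriers described further on. Both are the 250 bases before the RefSeq transcription start of GRCm38.p6 and overlap no exon of the GENCODE M21 annotation. Capitals mark a CACGTG E-box, the sequence bound by clock and other basic helix-loop-helix factors, and the remaining letters are in lower case. The Pdk2 window is chr11:95041372-95041621 and the Slc25a12 window is chr2:71367756-71368005, both on the minus strand and written 5′ to 3′ along the gene.
Pdk2: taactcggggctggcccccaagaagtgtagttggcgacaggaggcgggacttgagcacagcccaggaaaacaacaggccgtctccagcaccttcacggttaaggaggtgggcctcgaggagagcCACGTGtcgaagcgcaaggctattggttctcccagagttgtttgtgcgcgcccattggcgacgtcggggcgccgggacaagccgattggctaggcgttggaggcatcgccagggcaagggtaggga
Slc25a12: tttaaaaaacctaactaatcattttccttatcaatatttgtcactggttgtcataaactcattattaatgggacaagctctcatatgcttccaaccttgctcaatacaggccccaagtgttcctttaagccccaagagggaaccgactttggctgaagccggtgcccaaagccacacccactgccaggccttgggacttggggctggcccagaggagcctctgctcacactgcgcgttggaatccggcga

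In these windows Pdk2 held an E-box 126 bases before the start and Slc25a12 held none of the 4 motifs searched. The window of the downstream Pdk2 start held none either. RefSeq promoters were found for 29 of the 31 members. Searched on both strands, with no motif overlapping another in the members, CACGTG was present for 5 of these 29 (17.2%): Ogdh, Pcx, Pdk2, Pdp2 and Pdpr. Of all 27025 genes with a promoter it was present for 6.86%. Member promoters had a median GC content of 60.8%, against 52.4% for all promoters, and some members had several windows. Whether either bears on these shares was not tested. GCGCATGC, 8 bases of the site of the nuclear respiratory factor NRF1, was present for Ogdh alone (3.45% of members, 2.56% of all genes). TNAAGGTCA, a site of oestrogen-related receptors, and TTANGTAA, the D-box, were in 0 of the 29 members and in 1.30% and 2.44% of all genes. Such letters describe these windows only.

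Pcx, pyruvate carboxylase, which sends pyruvate to oxaloacetate in place of acetyl-CoA, was at 25.2 to 41.6 CPM in air (median 32.2) and 29.98 to 41.6 CPM in smoke (median 34.3). Its log2 fold change was 0.11 (SE 0.079, edgeR adjusted p = 0.526), and 9 of 13 smoke libraries lay above the air mean. Pcx overlaps Lrfn4 on the opposite strand, which had 163 reads over all libraries and could not be told from Pcx if strand was not used in counting.

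The 7 genes from citrate synthase to the oxoglutarate dehydrogenase complex had negative log2 fold changes, but the sign was not stable for those near 0: with the Schwann marker sum as a covariate Cs was at 0.015 and Idh3a at 0.055, and with the slow fibre sum Dlst was at 0.010. Of these 7, 4 had an unadjusted p under 0.05 and 0 were called. The entry enzyme of the cycle, citrate synthase (Cs), a common stand-in for mitochondrial content, was at 85.6 to 142 CPM in air (median 126) and 93.0 to 139 CPM in smoke (median 122). The groups overlapped wholly, with a log2 fold change of −0.015 with SE 0.070 (by edgeR, adjusted p = 0.950) and a 95% interval of −0.16 to 0.13. Idh2, the NADP-dependent isocitrate dehydrogenase that supplies mitochondrial NADPH, was at 485 to 750 CPM in air (median 557) and 387 to 688 CPM in smoke (median 487). Smoke libraries lay below the air mean in 12 of 13 and 6 lay below the lowest air library. Smoke replicate 13, at 688 CPM, was the 1 smoke library above the air mean. Idh2 went from 570 ± 70.0 to 495 ± 80.1 CPM (SD, n = 11 and 13), a log2 fold change of −0.21 with SE 0.075 (by edgeR, unadjusted p = 0.00936, adjusted p = 0.150), and it was called when smoke replicate 13 was left out (−0.26, adjusted p = 0.0325). Without air replicate 8, the highest air library at 749.9 CPM, it was at −0.16 (edgeR adjusted p = 0.277). Gm45203, an annotated transcript on the same strand within Idh2, had 803 reads in all, so a small part of its reads is uncertain.

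The NAD-dependent isocitrate dehydrogenase is an assembly of a catalytic alpha subunit (Idh3a) with beta (Idh3b) and gamma (Idh3g) subunits. Idh3g was at 170 to 281 CPM in air (median 222) and 169 to 223 CPM in smoke (median 194). It was below the air mean in 11 of 13 smoke libraries. Its mean went from 218 ± 27.2 to 194 ± 18.9 CPM (SD, n = 11 and 13), a log2 fold change of −0.17 with SE 0.064 (by edgeR, unadjusted p = 0.0121, adjusted p = 0.166). Idh3b was at 322 to 459 CPM in air (median 426) and 312 to 414 CPM in smoke (median 382), a log2 fold change of −0.12 with SE 0.055 (by edgeR, adjusted p = 0.252), and 6 of 11 air libraries lay above every smoke library. With the Schwann marker sum as a covariate it was −0.063 (edgeR adjusted p = 0.791). Idh3b overlaps Nop56 on the opposite strand (591 reads in all). Idh3a was at 131 to 185 CPM in air (median 161) and 131 to 188 CPM in smoke (median 156), a log2 fold change of −0.024 (95% interval −0.14 to 0.093). Leaving out 1 library moved Idh3a between −0.053 (without air replicate 11) and −0.0019 (without air replicate 10). Ogdh, the first subunit of the oxoglutarate dehydrogenase complex, was at 221 to 300 CPM in air (median 251.8) and 210 to 272 CPM in smoke (median 241.8), with a log2 fold change of −0.11 with SE 0.053 (by edgeR, adjusted p = 0.293). Dlst, the core of that complex, was at −0.016 (95% interval −0.12 to 0.091).

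Of the 5 genes of the later steps, Sucla2, Suclg1 and Mdh2 had negative and Suclg2 and Fh1 positive log2 fold changes, and 0 were called. Sucla2, the ADP-forming beta subunit of succinyl-CoA synthetase, had, with TMM scaling, the narrowest spread among libraries in smoke after Slc25a11 (a coefficient of variation of 4.33% against 4.23%). It was at 282 to 326 CPM in air (median 296) and 247.9 to 292 CPM in smoke (median 279), with all 13 smoke libraries below the air mean, 8 of them below the lowest air library, and 8 of 11 air libraries above every smoke library. Its mean went from 300.0 ± 14.1 to 277 ± 11.98 CPM (SD, n = 11 and 13), a log2 fold change of −0.12 with SE 0.042 (by edgeR, unadjusted p = 0.00894, adjusted p = 0.146). DESeq2 called it (adjusted p = 0.0329). Suclg1, the alpha subunit that Sucla2 pairs with, was at −0.081 (SE 0.045, edgeR adjusted p = 0.402), with 11 of 13 smoke libraries under the air mean. Suclg2, the GDP-forming beta subunit, was at 0.16 (SE 0.12, edgeR adjusted p = 0.565), and at 0.098 without air replicate 11, its lowest library. The log2 ratio of Sucla2 to Suclg2 was 3.75 to 4.93 in air and 3.49 to 4.33 in smoke. It was lower than the air mean in 12 of 13 smoke libraries, by 0.29 (SE 0.12), and did not pass adjustment (two-sided permutation p = 0.027, adjusted p = 0.054). Without air replicate 11, its highest air value, the shift was −0.22 (permutation adjusted p = 0.0907).

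Fh1, fumarase, varied widely among libraries, with a coefficient of variation of 24.5% in air, and had a log2 fold change of 0.041 with SE 0.12 (by edgeR, adjusted p = 0.917). Air replicate 11 was at 33.1 CPM for Fh1, against 58.4 to 107 CPM in the other air libraries, and without it the log2 fold change was −0.043. With the Schwann marker sum as a covariate it was 0.18, and it was −0.033 with the slow fibre sum. Mdh2, the mitochondrial malate dehydrogenase that closes the cycle and serves the shuttle, was at 1009 to 1336 CPM in air (median 1139) and 917 to 1160 CPM in smoke (median 1053). All 13 smoke libraries lay below the air mean, although 1 of 13 lay below the lowest air library. Its mean went from 1161 ± 103 to 1063 ± 62.5 CPM (SD, n = 11 and 13), a log2 fold change of −0.13 with SE 0.049 (by edgeR, unadjusted p = 0.0129, adjusted p = 0.173).

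**Figure D2:**
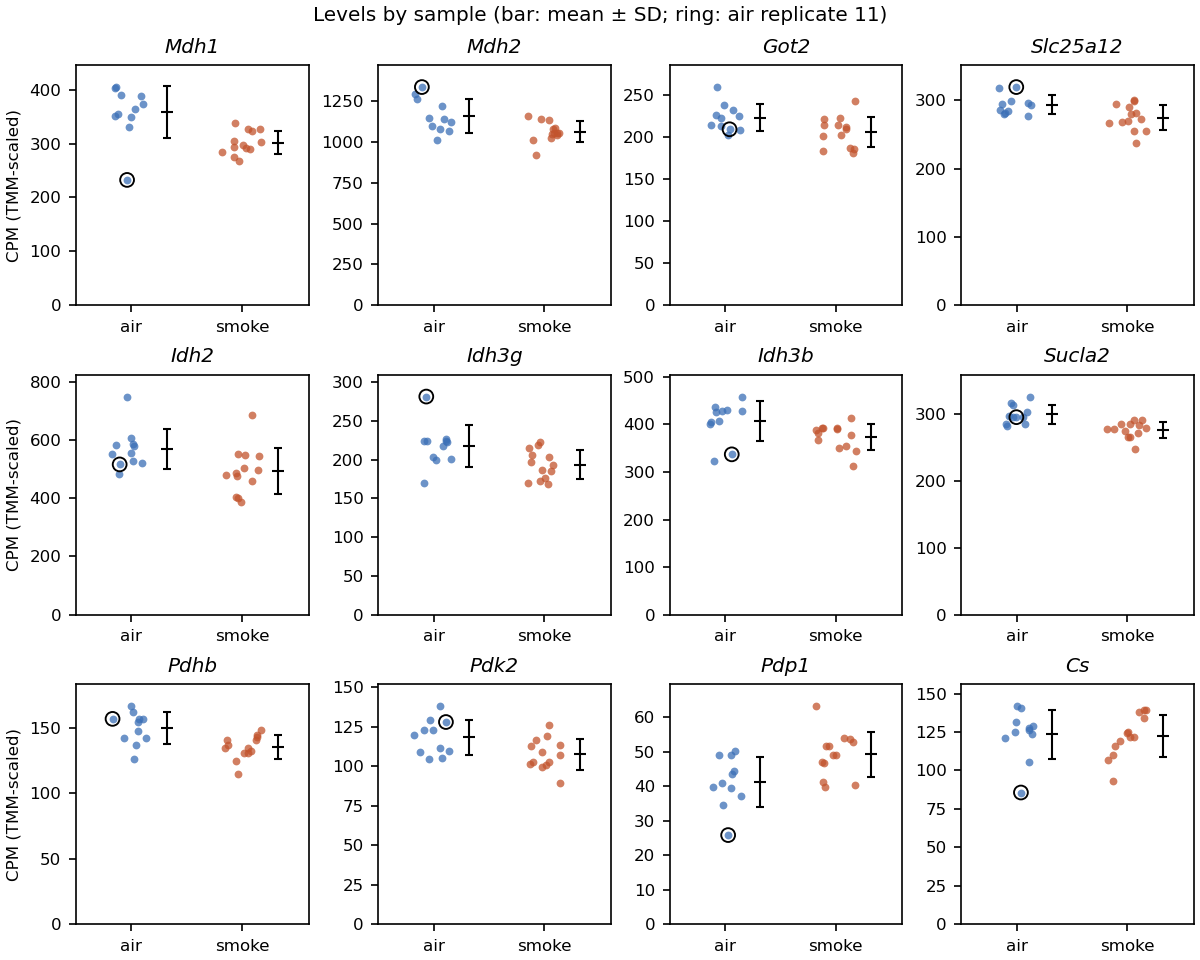
Level of 12 members in each library (CPM on TMM-scaled libraries, y axis from 0), 11 air and 13 smoke libraries, with mean ± SD beside the points and a ring around air replicate 11. For Mdh1 the ringed library lies at 232.6 CPM, below every smoke library, and the other 10 air libraries lie at 331 to 405 CPM.

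In the malate-aspartate shuttle, 4 of 5 genes had negative log2 fold changes. Mdh1 was at 331 to 405 CPM in 10 air libraries and at 232.6 CPM in air replicate 11, with a median of 364 CPM over all 11. In smoke it was at 268 to 338 CPM (median 297). Apart from air replicate 11, the groups met only at 1 air library (331 CPM) and 1 smoke library (338 CPM). All 13 smoke libraries lay below the air mean. Mdh1 fell from 359 ± 48.0 to 302 ± 21.4 CPM (SD, n = 11 and 13), a log2 fold change of −0.25 with SE 0.063 (by edgeR, quasi-likelihood, unadjusted p = 0.000372, Benjamini-Hochberg adjusted p = 0.0286), which ranked 132nd by p-value among all tested genes. Without air replicate 11 the log2 fold change was −0.30 (edgeR adjusted p = 0.000346). The call was lost without air replicate 1, 3 or 10 or smoke replicate 6 (adjusted p from 0.0519 to 0.0531). It was also lost under a replicate block, fitted on the libraries whose number occurs in both groups (−0.25, edgeR adjusted p = 0.0697). Without smoke replicates 2, 10 and 12, which held the most Schwann cell RNA, the log2 fold change was −0.22 (adjusted p = 0.101), and with the Schwann, slow fibre and blood marker sums as covariates in turn it was −0.20, −0.22 and −0.27 (adjusted p = 0.252, 0.11 and 0.104). These sums themselves differed between the groups, so the covariate fits cannot tell cell content from exposure. Mdh1 overlaps Wdpcp on the opposite strand, which had 100 reads in all.

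The log2 ratio of Mdh1 to Mdh2, the cytosolic and mitochondrial malate dehydrogenases, was −1.88 to −1.37 in 10 air libraries and −2.52 in air replicate 11. In smoke it was −2.001 to −1.63. Over all libraries the shift was −0.11 (SE 0.10, two-sided permutation adjusted p = 0.385), and without air replicate 11 it was −0.20 (permutation adjusted p = 0.0181), so that 1 library decides this result. Got1 and Got2 are the cytosolic and mitochondrial aspartate aminotransferases. Got1 was at 389 to 436 CPM in air (median 402) and 350 to 453 CPM in smoke (median 382), a log2 fold change of −0.061 with SE 0.046 (by edgeR, adjusted p = 0.565), or −0.033 with the slow fibre marker sum as a covariate, and 7 of 13 smoke libraries lay below the lowest air library. Got2 was at 203 to 260 CPM in air (median 223) and 181 to 242.99 CPM in smoke (median 210), a log2 fold change of −0.11 with SE 0.053 (by edgeR, adjusted p = 0.291). Their log2 ratio differed by 0.050 (SE 0.050, permutation adjusted p = 0.428), by 0.053 without air replicate 11 and by 0.020 without smoke replicate 10.

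Of the carriers of the shuttle, Slc25a12, which exchanges aspartate for glutamate, was at 277 to 319 CPM in air (median 294) and 236.8 to 299.9 CPM in smoke (median 273). Its log2 fold change was −0.097 (SE 0.046, edgeR unadjusted p = 0.0421, adjusted p = 0.295), and 7 of 13 smoke libraries lay below the lowest air library. Slc25a11, which exchanges oxoglutarate for malate, was at 214 to 278 CPM in air (median 245.4) and up to 268 CPM in smoke (median 250.8, none below the lowest air library), at 0.017 (95% interval −0.076 to 0.11). The log2 ratio of Slc25a12 to Slc25a11 was 0.13 to 0.58 in air (median 0.24) and 0.0060 to 0.27 in smoke (median 0.12). It was below the air mean in 11 of 13 smoke libraries and fell by 0.12 (SE 0.043, two-sided permutation p = 0.00454, adjusted p = 0.0136). Its highest air value was again air replicate 11, and without that library the shift was −0.085 (permutation adjusted p = 0.0271). This pair too was chosen with earlier results of these data known, and neither carrier was called alone. Slc25a11 overlaps Rnf167 on the opposite strand, which had 3339 reads in all, so its reads are uncertain if strand was not used in counting.

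**Figure D3:**
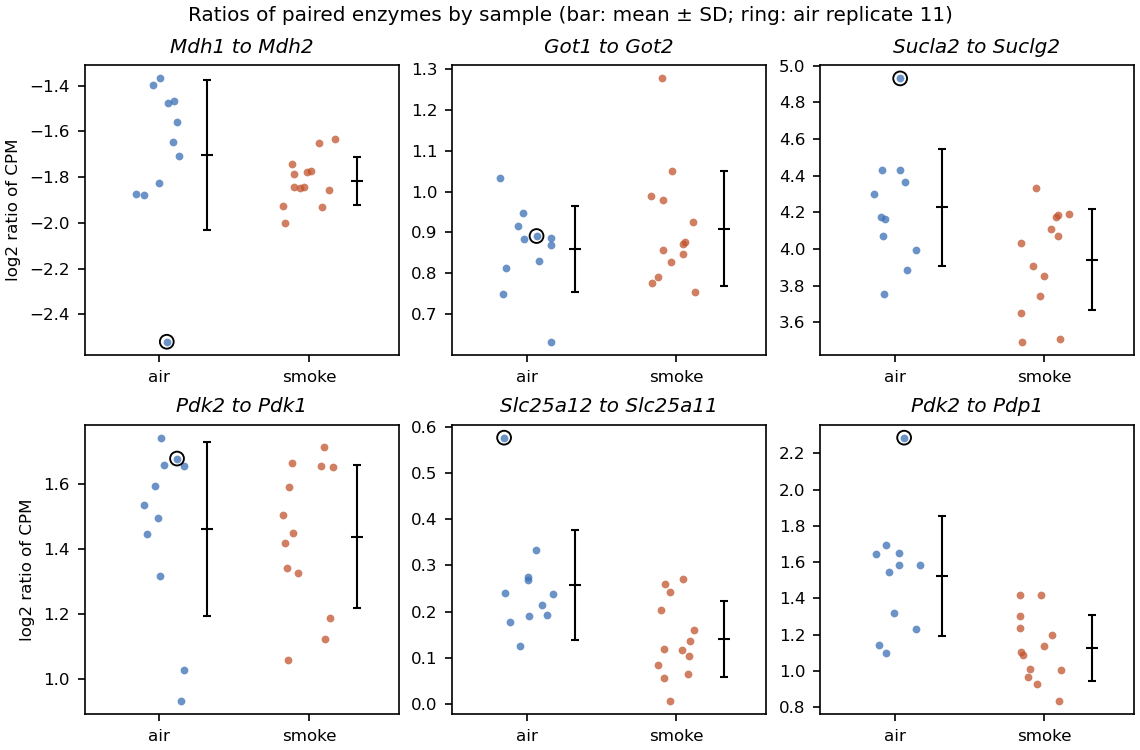
Log2 ratio of CPM of 6 pairs of alternative or opposing enzymes in each library (y axes differ and do not start at 0), with mean ± SD beside the points and a ring around air replicate 11. The ratios of Pdk2 to Pdp1 and of Slc25a12 to Slc25a11 lie lower in smoke, and the ringed library is the extreme air value in 4 of 6 panels.

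Of 28 further genes that feed, complete or branch off the pathway, 23 were tested and 3 were called, 2 lower and 1 higher (background 1.92% of all genes in either direction). Ldhb, the lactate dehydrogenase subunit typical of oxidative fibres, fell from 149 ± 17.2 to 119 ± 16.2 CPM (SD, n = 11 and 13), a log2 fold change of −0.33 with SE 0.069 (by edgeR, adjusted p = 0.00863). It was at 124 to 183 CPM in air and 105 to 158 CPM in smoke, with 11 of 13 smoke libraries below the lowest air library. Ldha, the subunit typical of glycolytic fibres, was at 0.041 (SE 0.048, edgeR adjusted p = 0.746). Pdk4, the fasting-induced kinase of the complex, fell from 5.32 ± 2.20 to 2.36 ± 1.29 CPM (SD, n = 11 and 13) at a log2 fold change of −1.14 with SE 0.27 (by edgeR, adjusted p = 0.0165), on 1 to 36 reads per library. Its call was lost with the blood marker sum as a covariate (−1.18, edgeR adjusted p = 0.0852) and with the Schwann marker sum (−0.78, edgeR adjusted p = 0.274). Gpd2, the mitochondrial enzyme of the glycerophosphate shuttle, was the called gene that rose. It was at 155 to 194 CPM in air and 181 to 218 CPM in smoke, where 13 of 13 libraries exceeded the air mean, with a log2 fold change of 0.18 with SE 0.049 (by edgeR, adjusted p = 0.0481). Its call was close to the threshold and was lost in most of the fits that left out 1 library. It was also lost with no filter on low counts (edgeR adjusted p = 0.215), with upper-quartile scaling (0.0503), with the blood, Schwann and slow fibre marker sums as covariates (0.194, 0.103 and 0.137) and without smoke replicates 2, 10 and 12 (0.0621). Slc25a1, the mitochondrial citrate carrier, named after its values were seen, had the highest log2 fold change of these genes (0.59, SE 0.19, edgeR adjusted p = 0.108) on 9 to 39 reads per library. It exceeded its air mean in 12 of 13 smoke libraries and was called with the blood marker sum as a covariate. Gpd1, the cytosolic partner of Gpd2, was at 0.080 (SE 0.066, edgeR adjusted p = 0.616). Of the 4 succinate dehydrogenase subunits, Sdha was at −0.10, Sdhb at −0.13, Sdhc at 0.029 and Sdhd, which had few reads, at −0.22 (edgeR adjusted p = 0.21, 0.157, 0.881 and 0.823).

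Members differed in how far they varied among libraries of 1 group. The median coefficient of variation was 10.2% in air and 9.11% in smoke over the 29 tested members. Compared with the 200 genes nearest in level to each, 15 of 29 members varied less than the median of such genes in air and 17 of 29 in smoke. Got1 (3.50%), Sucla2 (4.71%) and Slc25a12 (4.84%) varied least in air with TMM scaling, and Pdp2 (46.6%), Pdpr (26.1%) and Fh1 (24.5%) most. With total-count scaling the least variable in air were Slc25a12 (5.03%), Mdh2 (5.97%) and Idh3g (7.81%), and Got1 was at 8.02%.

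**Figure D4:**
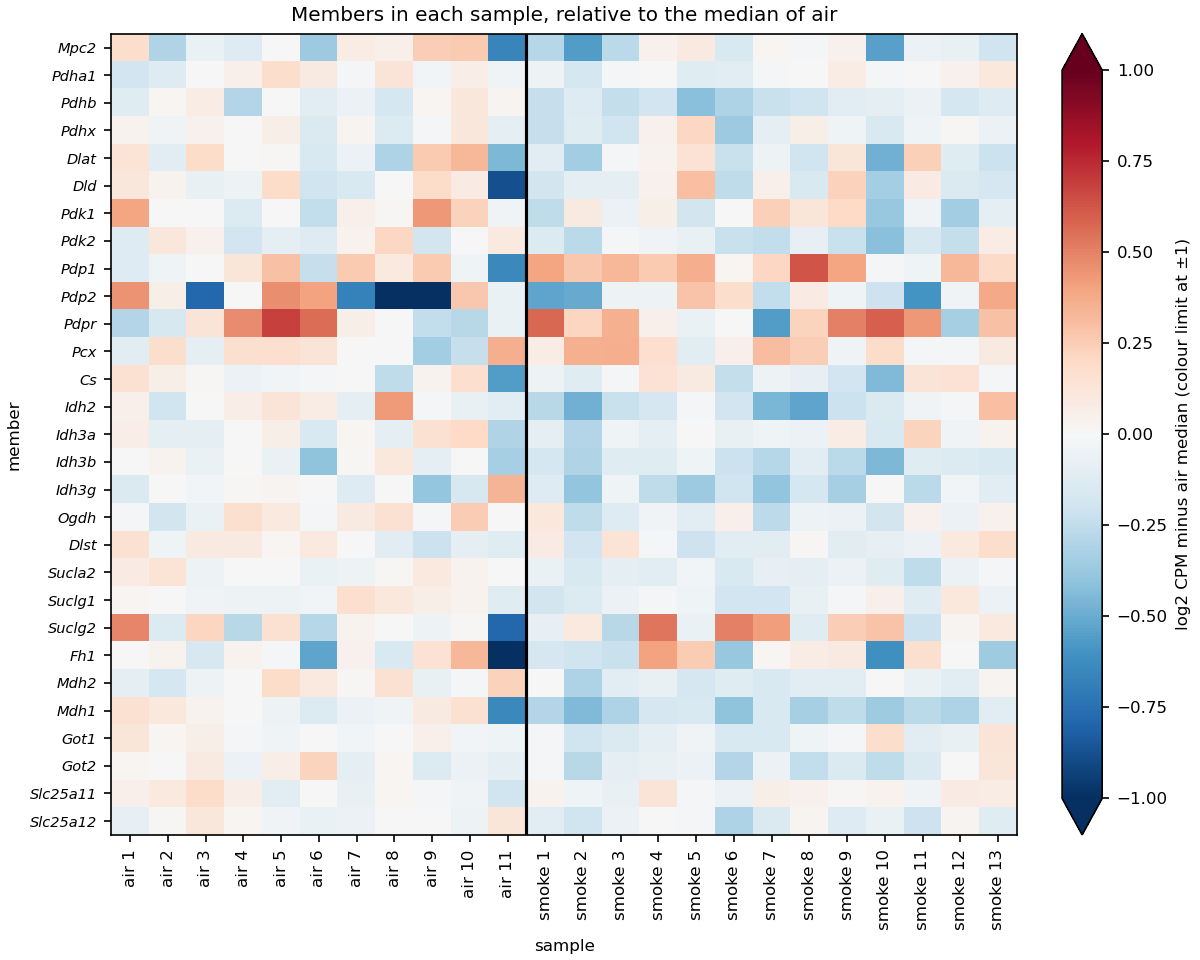
Each tested member (rows, by role) in each library (columns, 11 air then 13 smoke), as log2 CPM minus the median of air, with the colour limit at ±1. Mdh1 is blue across the smoke columns and Pdp1 mostly red, and the column of air replicate 11 is dark blue for Fh1, Dld, Mpc2, Pdp1 and Mdh1 but red for Idh3g and Mdh2.

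Whether libraries with more of 1 partner also had more of the other was tested within groups for 5 pairs, 10 relations in all. Idh3a and Idh3g ran in opposite directions in air (Pearson's r −0.843, permutation p = 0.00157, adjusted p = 0.0157; Spearman's rho −0.682, p = 0.0254, adjusted p = 0.241; n = 11), and r was −0.744 without the 2 libraries farthest from the median of Idh3a. Without air replicate 11, r was −0.712 (permutation adjusted p = 0.136), and in smoke r was −0.0275 (permutation p = 0.930, n = 13). No other relation passed adjustment with TMM scaling. Mdh1 and Got1, the cytosolic shuttle enzymes, had r of 0.533 in air (permutation p = 0.0934; rho 0.582, p = 0.0663; n = 11) and 0.301 in smoke (permutation p = 0.319; rho 0.357, p = 0.231; n = 13). The E1 subunits Pdha1 and Pdhb had r of −0.122 in air (permutation p = 0.721; rho −0.164, p = 0.63; n = 11) and 0.482 in smoke (permutation p = 0.093; rho 0.516, p = 0.0722; n = 13). With CPM on total counts in place of TMM scaling the calls changed places: Idh3a and Idh3g in air no longer passed (r −0.69, permutation adjusted p = 0.126). Instead Mdh1 and Got1 in air (r 0.908, permutation adjusted p = 0.0038), Sucla2 and Suclg1 in air (r 0.724, permutation adjusted p = 0.0435) and Mdh2 and Got2 in smoke (r 0.662, permutation adjusted p = 0.0435) passed. Without smoke replicates 2, 10 and 12, Pdha1 and Pdhb passed in smoke (r 0.818, permutation adjusted p = 0.0247).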

How the data were processed

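The authors deposited raw read counts per Ensembl gene ID, 1 column per library, from Lexogen QuantSeq 3′ libraries of 11 air and 13 smoke plantaris samples. The submitters' processing notes name STAR, DESeq2 and mm9; the counting tool, annotation, strand setting and use of molecular identifiers are not given in the sources used here, so reads may include PCR copies and floors cover counting error only. Symbols came from GENCODE M21 (GRCm38; 47224 of 47643 IDs, 99.1%), and no coordinates of counted genes are given since the named build differs. Per the file headers all libraries were read on 1 lane, and the sample sheet lists smoke before air, so sheet position and group cannot be told apart.

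Groups came from the titles. Genes passing filterByExpr (minimum count 10) of edgeR 4.0.16 (R 4.3.3) were scaled by TMM and tested by the quasi-likelihood F-test over all 24 libraries, with Benjamini-Hochberg adjustment over all genes and a threshold of 0.05. Standard errors are the log2 fold change over the square root of F. Log2 ratios and correlations used log2 CPM with a prior count of 2 and two-sided permutation tests (100000 resamples), adjusted over 6 ratios and 10 relations; pairs with Mpc1, below the filter, were left out. The fit was tested on simulated counts with 200 changed genes. It recovered 12.1% of changes of 0.25 on the log2 scale, 62.1% of those of 0.58 and 96.9% of those of 1. Of 117 genes called there, 5 had no change. A member that was not called is therefore not shown to be unchanged. No pair of libraries in a group agreed within sampling noise (chi-square per gene 2.51 to 18.7 over 133 pairs).

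The rule for named genes gave full statistics for called members and the 8 members of smallest p-value, levels by library for these and for Mpc1, Mpc2, Pdha1, Cs, Idh3a, Ogdh, Got1, Got2 and Slc25a12, and the called further pathway genes; Pdhx, Dlat, Dld, Pdk1, Pdp2, Pdpr, Pcx, Idh3b, Dlst, Suclg1, Suclg2, Fh1, Slc25a11, Ldha, Gpd1, Sdha, Sdhb, Sdhc and Sdhd are named to account for the pathway. The members, gene lists and pairs were chosen with earlier results of these data known. Alternatives were RLE and upper-quartile scaling, other filters, DESeq2 1.42.0, limma 3.58.1 (voom), a replicate block and leaving out each library. Marker sums as covariates and the removal of sets of libraries were added after seeing the data. One result on a further pathway gene is not reported here.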

Additional observations from a re-analysis of the deposited data

How the results depend on the processing

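The count of 22 of 29 members with a negative log2 fold change ranged from 19 to 24 over the libraries left out in turn and from 21 to 22 under other scalings and tests. It was 22 of 31 with no filter and 21 of 28 with a minimum count of 30, and 17 of 29 with the Schwann marker sum as a covariate. Pdk4 lost its call with the blood and Schwann sums. Mdh1 was called with RLE, upper-quartile scaling, both other filters, DESeq2 and voom (adjusted p from 0.0133 to 0.0429). DESeq2 called 2 members and 323 genes in all, and an adjusted p under 0.10 gave 413 genes. The replicate block used only libraries whose number occurs in both groups (11 of each), so smoke replicates 12 and 13 were left out. It called 138 genes and 0 members, with 1570 genes and 9 members at an unadjusted p under 0.05. In that fit Mdh1 was at −0.25 with an edgeR adjusted p of 0.0697, and Gpd2 was no longer called (edgeR adjusted p = 0.101). Replicate numbers do not pair the libraries: same-numbered libraries correlated at a mean r of −0.00592 (11 pairs, 4 over 0.1). Blood, Schwann and slow fibre sums as covariates called 61, 73 and 113 genes and 0 members each by edgeR. At an unadjusted p under 0.05 these fits had 7, 5 and 8 of 29 members and 1238, 1223 and 1391 of all 10159 genes. The Schwann sum left 1 further pathway gene called. Without smoke replicates 2, 10 and 12 the fit called 146 genes and 0 members, with 1390 genes and 9 members at an unadjusted p under 0.05. Libraries left out in turn gave 141 to 254 genes, 0 to 2 members and 2 to 3 further pathway genes. The causes were not tested.

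Some members changed sign, most of them near 0. Dld was at 0.0057 with a minimum count of 30, 0.0094 with voom and 0.025 under the block. It was at 0.030 with the blood sum, 0.094 with the Schwann sum and 0.037 without smoke replicates 2, 10 and 12. Cs was at 0.0046, 0.015 and 0.0048 in these same settings. With the Schwann sum Mpc2 was at 0.032, Dlat at 0.044 and Idh3a at 0.055, and Idh3a was at 0.0094 without those smoke libraries. With the slow fibre sum Pdp2 was at −0.047, Dlst at 0.010 and Fh1 at −0.033. Over libraries left out in turn Dld ranged from −0.068 to 0.022, Cs from −0.062 to 0.0095, Dlst from −0.037 to 0.00096, Pdp2 from −0.066 to 0.11, Fh1 from −0.043 to 0.091 and Slc25a11 from −0.0053 to 0.035. Without air replicate 11 and smoke replicate 10, Fh1 was at −0.0027 and Slc25a11 at −0.0028.

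Over libraries left out in turn, the log2 ratio shifts ranged from −0.44 to −0.32 for Pdk2 to Pdp1, from −0.13 to −0.085 for Slc25a12 to Slc25a11, from −0.33 to −0.22 for Sucla2 to Suclg2, from −0.20 to −0.080 for Mdh1 to Mdh2, from 0.020 to 0.068 for Got1 to Got2 and from −0.077 to 0.0076 for Pdk2 to Pdk1. The first 2 passed in every such fit, under the block (permutation adjusted p = 0.0117 and 0.041) and without the sets of libraries. The ratio of Sucla2 to Suclg2 passed without air replicate 1, 3 or 5 or smoke replicate 1, 3, 5 or 8 (permutation adjusted p from 0.0202 to 0.0435). That of Mdh1 to Mdh2 was −0.18 without air replicate 11 and smoke replicate 10. With CPM on total counts, r of Idh3a and Idh3g was −0.69 in air and 0.115 in smoke, of Pdha1 and Pdhb in air 0.192, of Sucla2 and Suclg1 in air 0.724, of Mdh1 and Got1 in air 0.908 and of Mdh2 and Got2 in smoke 0.662. Without air replicate 11 and smoke replicate 10, r of Idh3a and Idh3g was −0.712 in air and 0.112 in smoke. Without smoke replicates 2, 10 and 12, r of Pdha1 and Pdhb in smoke was 0.818.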
